A study of Drosophila melanogaster with 6 samples.

Results

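The larval glue genes examined here were Sgs1, Sgs3, Sgs4, Sgs5, Sgs7, Sgs8 and Eig71Ee, taken as the probe sets that the platform annotation pairs with exactly one of these genes. Each gene had 1 such probe set, so the group held 7 of 18769 tested probe sets and 7 of 11982 genes with a probe set of their own. RNA from whole Drosophila melanogaster embryos of stages 11-16 was hybridised to 6 Affymetrix arrays. On 3 arrays the embryos expressed a UAS-Sage transgene under the tub-Gal4 driver, and on 3 they were Oregon R wild type. Both groups are listed with an Oregon R background. tub-Gal4 is active in most cells, so Sage was made far outside its normal place. Embryos carrying the driver alone were not analysed here, so an effect of the driver and one of Sage cannot be told apart. Whether replicates were separate embryo collections is not in the labels, so each p-value reflects the spread among these arrays, which may be technical.

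Glue proteins are made by the salivary glands of the last larval instar, stored in large secretory granules and released when the animal pupariates, when they fix the pupal case to its support. Several are mucins, long proteins whose threonine-rich repeats carry many sugars, and others are short and rich in cysteine. Their genes lie in puffs of the giant salivary gland chromosomes and are switched on and off by the steroid hormone ecdysone together with gland factors such as Fork head. Sage is a basic helix-loop-helix factor of the salivary gland, active there from the embryo on. The comparison asks which of these larval genes were already expressed in embryos when Sage was made in most tissues.

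Of the 7 glue genes, 2 rose and 0 fell in Sage embryos at a limma adjusted p under 0.05, Eig71Ee and Sgs4. Among all tested probe sets 3.24% were raised and 2.88% lowered by the same rule. Sgs1, Sgs3, Sgs5, Sgs7 and Sgs8 did not pass and had log2 differences between -0.14 and 0.10. The median difference of the 7 was 0.04, beside -0.01 over all genes. The groups did not overlap for Eig71Ee and Sgs4 and overlapped for the other members, and 14.0% of all probe sets had every Sage array above every wild type array.

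Levels are deposited log2 RMA values, in which a step of 1 is a doubling. To show where signal ends, 70 control probe sets taken to have no fly target were read on the same arrays. The brightest of them read between 5.17 and 5.48, depending on the array. A value no higher than that is described as within the control range. Affinity differs between probe sets, so levels are compared between groups and not between genes.

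Eig71Ee encodes a secreted mucin-like protein of the late larval salivary gland that is also made by blood cells and takes part in clotting of the haemolymph. It read 10.49, 9.87 and 10.23 on Sage arrays 1, 2 and 3, against 5.05, 5.18 and 5.01 on wild type arrays 1, 2 and 3. All 3 wild type values lay within the control range and all 3 Sage values far above it. The means were 10.20 ± 0.32 in Sage overexpression and 5.08 ± 0.09 in wild type (SD, n = 3 each). The log2 fold change was 5.12 (SE 0.17, limma adjusted p 3.05e-05), with a 95% interval of 4.72 to 5.51. Because the wild type signal was within the control range, the rise is best given as a bound. Set against the brightest control on each wild type array, the mean of Eig71Ee was at least 28.8-fold higher in Sage embryos. This bound compares means and leaves out the spread among arrays.

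Sgs4 encodes a repeat-rich glue protein of the larval gland. It read 8.18, 7.23 and 7.83 on Sage arrays 1, 2 and 3, against 4.48, 4.58 and 4.45 on wild type arrays 1, 2 and 3. Again each wild type value was within the control range and each Sage value above it. The means were 7.75 ± 0.48 in Sage overexpression and 4.51 ± 0.07 in wild type (SD, n = 3 each). The log2 fold change was 3.24 (SE 0.23, limma adjusted p 0.00119), with a 95% interval of 2.68 to 3.80. Against the brightest controls the mean of Sgs4 was at least 5.27-fold higher in Sage embryos, again without the spread among arrays.

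The Sage arrays kept the same order for both genes, with array 1 highest and array 2 lowest. The gap between the highest and lowest Sage array was 0.63 for Eig71Ee and 0.95 for Sgs4 on the log2 scale, against 0.17 and 0.13 among the wild type arrays. The lowest Sage array still stood 4.68 above the highest wild type array for Eig71Ee, and 2.64 above it for Sgs4. RNA of sage itself did not share that order, with 12.17, 12.31 and 12.28 on Sage arrays 1, 2 and 3, against 7.68, 8.08 and 7.40 in wild type, transgene and endogenous RNA not being told apart. The exact two-sided permutation p was 0.1 for Eig71Ee and for Sgs4, the smallest that 3 arrays against 3 allow. In whole embryos, more expressing cells and more RNA per cell cannot be told apart.

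**Figure D1:**
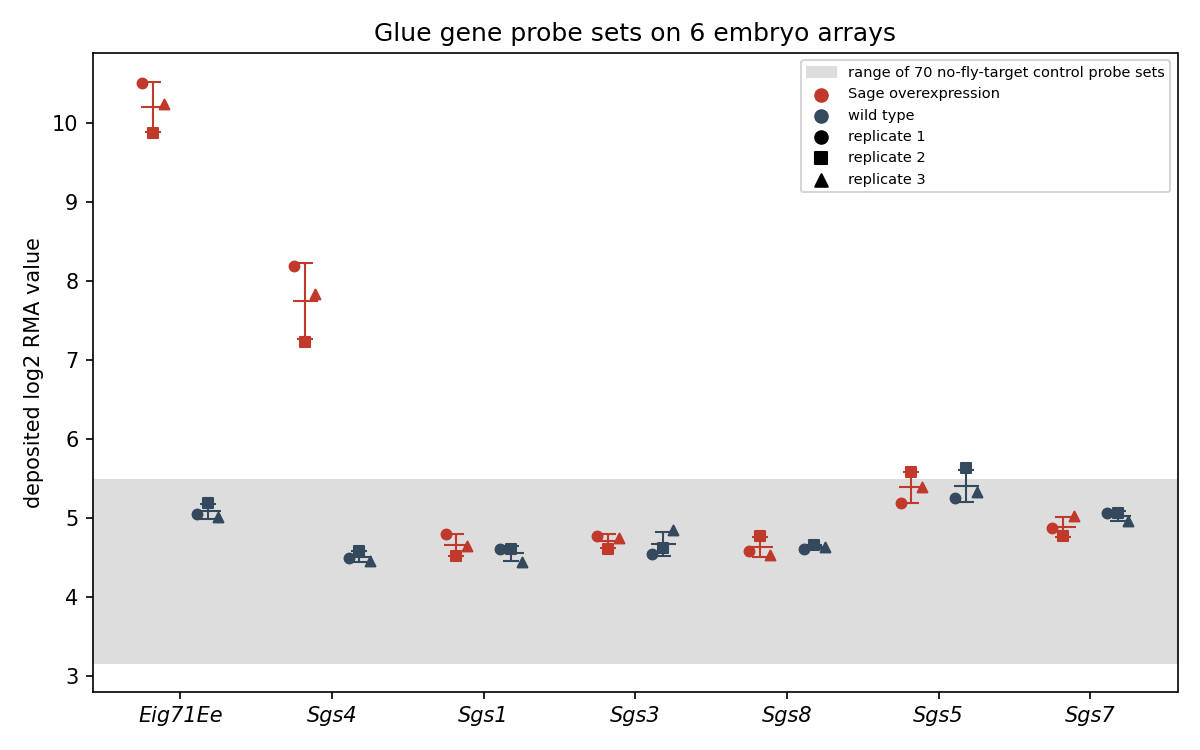
Deposited log2 RMA value (vertical axis) of each glue gene probe set on the 3 Sage arrays (left of each pair) and the 3 wild type arrays (right). Symbols mark the replicate number, bars the mean and SD, and the grey band the range of the 70 controls over all arrays. Eig71Ee and Sgs4 lay above the band on the Sage arrays and within it on the wild type arrays, and Sgs5 lay at its upper edge in both groups.

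Sgs3, Sgs7 and Sgs8 lie close together in the genome and are known as a cluster that the larval gland expresses together. Sgs3, a mucin with a long repeat region, read 4.77, 4.61 and 4.75 on the Sage arrays, against 4.54, 4.61 and 4.84 in wild type. Sgs7, a short cysteine-rich glue protein, read 4.87, 4.76 and 5.02 on the Sage arrays, against 5.06, 5.05 and 4.96 in wild type. Sgs8, its close relative, read 4.58, 4.77 and 4.53 on the Sage arrays, against 4.60, 4.65 and 4.63 in wild type. All of these values lay within the control range, and the groups overlapped for each gene.

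The log2 differences were 0.04 for Sgs3 (95% interval -0.22 to 0.30), -0.14 for Sgs7 (-0.37 to 0.09) and -0.00205 for Sgs8 (-0.23 to 0.22). Their limma adjusted p-values were 0.893, 0.492 and 0.994. No interval reached 0.5 in either direction, although a probe set in the control range can hide a change that stays below it.

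Sgs1, the gene of the biggest glue mucin, read 4.80, 4.52 and 4.65 on the Sage arrays, against 4.60, 4.61 and 4.44 in wild type. Its log2 difference was 0.10 (95% interval -0.15 to 0.36, limma adjusted p 0.663), and all 6 values were within the control range. Sgs5, a small glue protein, read 5.19, 5.58 and 5.38 on the Sage arrays, against 5.24, 5.62 and 5.32 in wild type. It passed the brightest control on 2 of 3 Sage arrays and on 2 of 3 wild type arrays, so a weak signal was possible in both groups. The difference was -0.01 (95% interval -0.37 to 0.34, limma adjusted p 0.976). Array 2 was the highest of its group for Sgs5 both times, a shift that the replicate numbers share.

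Other glue and late-puff genes gave the nearest comparison. The list held Sgs5bis, a gene beside Sgs5, the new glue genes ng1 to ng4 near Sgs4, and the remaining Eig71E genes, short secreted proteins encoded in the same puff as Eig71Ee. Of 15 listed, 13 were measured, and in limma 0 rose and 0 fell, while 2 were higher and 0 were lower at an unadjusted p under 0.05. Among all genes 4.31% were raised and 3.49% lowered at the adjusted threshold, and 12.7% were higher and 13.4% were lower at the unadjusted one. The 13 log2 differences ran from -0.05 to 0.44 with a median of 0.05, and none of the 13 passed the brightest control on any array.

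Sgs5bis had the smallest p of the list. It read 4.82, 4.90 and 4.91 on the Sage arrays, against 4.48, 4.55 and 4.28 in wild type, so the groups did not overlap. Its log2 difference of 0.44 (SE 0.10) missed the threshold with a limma adjusted p of 0.053, and all of its values were within the control range. It passed without wild type array 2 (limma adjusted p 0.0291) and with the trend and robust settings (0.0277).

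**Figure D2:**
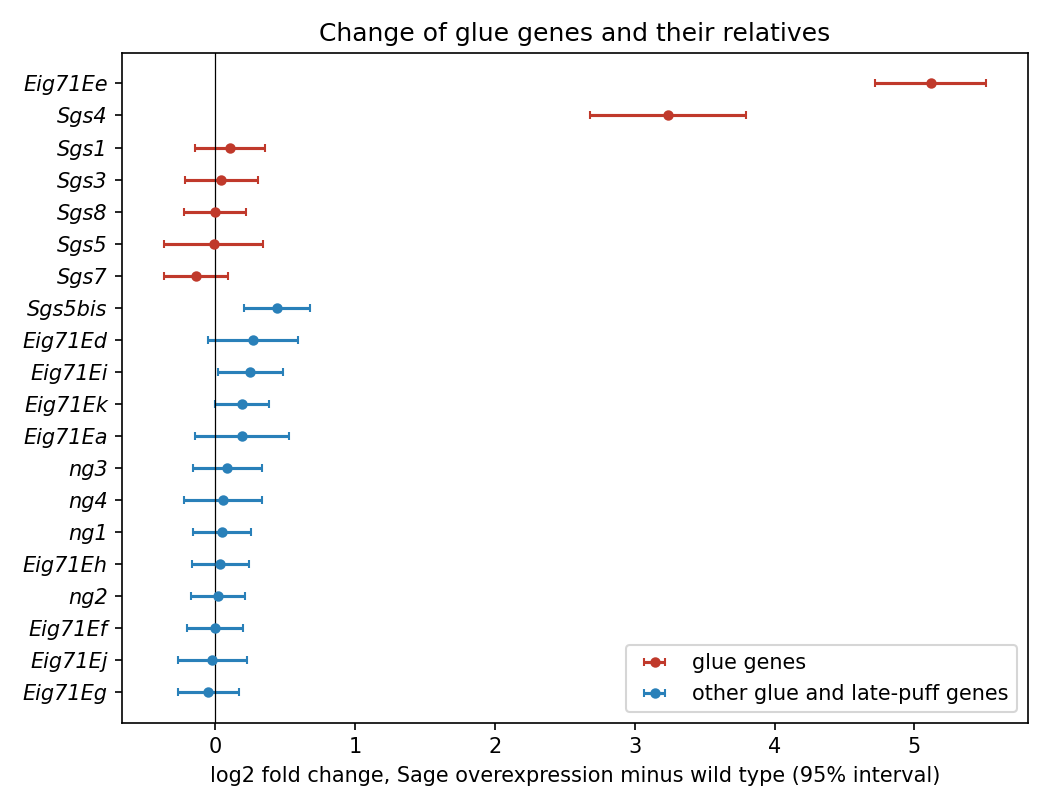
Log2 fold change of Sage overexpression minus wild type (horizontal axis) with its 95% limma interval for the 7 glue genes (upper rows) and 13 other glue and late-puff genes (lower rows). Eig71Ee at 5.12 and Sgs4 at 3.24 stand apart from the other genes, which lie between -0.14 and 0.44.

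The rises of Eig71Ee and Sgs4 were next examined against their genomic neighbours, the 5 genes on either side of each member in the order of the Release 6 gene table. Of 51 neighbours that are not members, 38 were measured. Raised were 2, Pig1 and Edg91, and 0 were lowered, beside 4.31% and 3.49% of all genes, with a median log2 difference of 0.04. With the replicate block 4 rose and 1 fell, the added ones being hoe2 and snsl, raised, and CG33272, lowered. The raised count was 5 without wild type array 2, 1 without Sage array 1 or 3 or wild type array 1, and 0 without Sage array 2. Over all 18769 probe sets, 1077 rose and 1114 fell with the replicate block, against 608 and 541 in the main fit. Raised probe sets numbered 935 without wild type array 2, and 230 to 341 without any one Sage array or wild type array 1.

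Beside Eig71Ee lie Eig71Ed and Eig71Ef. Eig71Ed read 4.77, 5.03 and 4.58 on the Sage arrays, against 4.54, 4.62 and 4.41 in wild type, with a log2 difference of 0.27 (limma adjusted p 0.327). Eig71Ef read 4.17, 4.20 and 4.13 on the Sage arrays, against 4.07, 4.22 and 4.23 in wild type (log2 difference -0.00474, limma adjusted p 0.984). Both flanking genes thus read within the control range in both groups while the gene between them was at least 28.8-fold higher by its mean.

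Pig1 is known to be transcribed away from Sgs4 across a shared control region. It read 5.05, 4.73 and 4.89 on the Sage arrays, against 4.34, 4.47 and 4.28 in wild type. The groups did not overlap and Sage array 2 was again the lowest of the Sage arrays. The log2 fold change was 0.53 (SE 0.11, limma adjusted p 0.0458), but each of the 6 values was within the control range. Pig1 missed the threshold after median centring (limma adjusted p 0.0554), after quantile normalization (0.0581) and without any one array other than wild type array 2 (up to 0.180). On the other side of Sgs4, CG10793 had a log2 difference of -0.14 (limma adjusted p 0.529).

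Among neighbours of the other members, Edg91, an ecdysone-dependent cuticle protein gene close to Sgs5, read 6.52, 6.74 and 7.03 on the Sage arrays, against 5.60, 5.27 and 5.67 in wild type. It rose 2.38-fold (limma adjusted p 0.0103) and missed the threshold without Sage array 2 (0.0553). Between Sgs7 and Sgs3, CG33272 had a log2 difference of -0.92 (limma adjusted p 0.117, and 0.0095 with the replicate block).

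**Figure D3:**
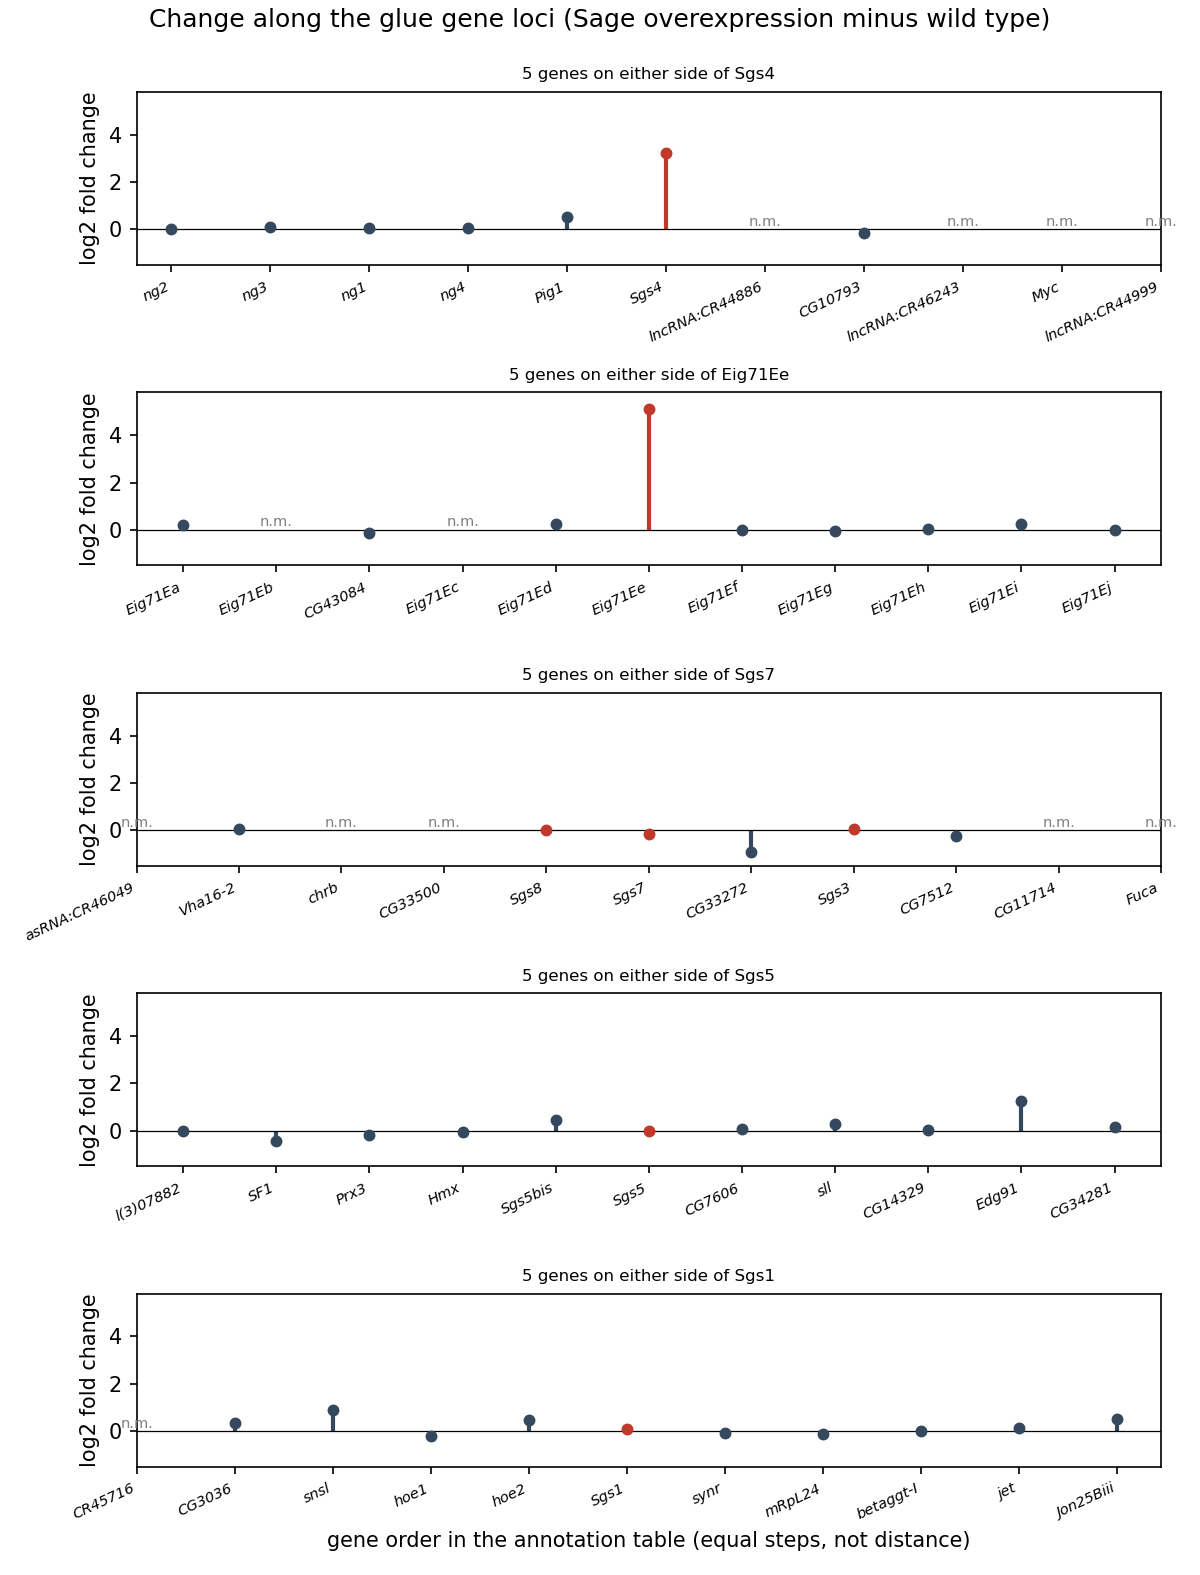
Log2 fold change of Sage overexpression minus wild type (vertical axis) for glue genes (red) and other genes (dark), in gene order with equal steps. Panels show the 5 genes on either side of Sgs4, Eig71Ee, Sgs7, Sgs5 and Sgs1, with Sgs3 and Sgs8 in the Sgs7 panel. The mark n.m. stands for genes with no probe set of their own. Sgs4 (3.24) and Eig71Ee (5.12) stand above their neighbours, of which Pig1 (0.53) lies beside Sgs4 and Edg91 (1.25) near Sgs5.

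The 2 raised members were compared with all genes for likeness of change. It was measured as the Euclidean distance over the 6 arrays after each gene's wild type mean was subtracted. The distance is not scaled, so it mostly reflects the size of the rise. Nearest to Eig71Ee were CG7443 (distance 0.93), the carbonic anhydrase gene CAH5 (1.11) and sage (1.21). CG7443 read 8.87, 9.07 and 9.07 on the Sage arrays, against 4.19, 4.50 and 4.20 in wild type, and CAH5 averaged 10.07 in Sage overexpression and 4.42 in wild type. Nearest to Sgs4 were Npc2c (0.62), of the sterol-binding Npc2 family, CG9040 (0.91) and CG31075 (0.95). Npc2c read 7.89, 7.39 and 8.28 on the Sage arrays, against 4.45, 4.48 and 4.77 in wild type, and like Sgs4 was lowest on Sage array 2. Neither raised member was among the 3 nearest genes of the other, which their log2 fold changes of 5.12 and 3.24 settled beforehand. That result therefore does not bear on likeness of their array order.

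**Figure D4:**
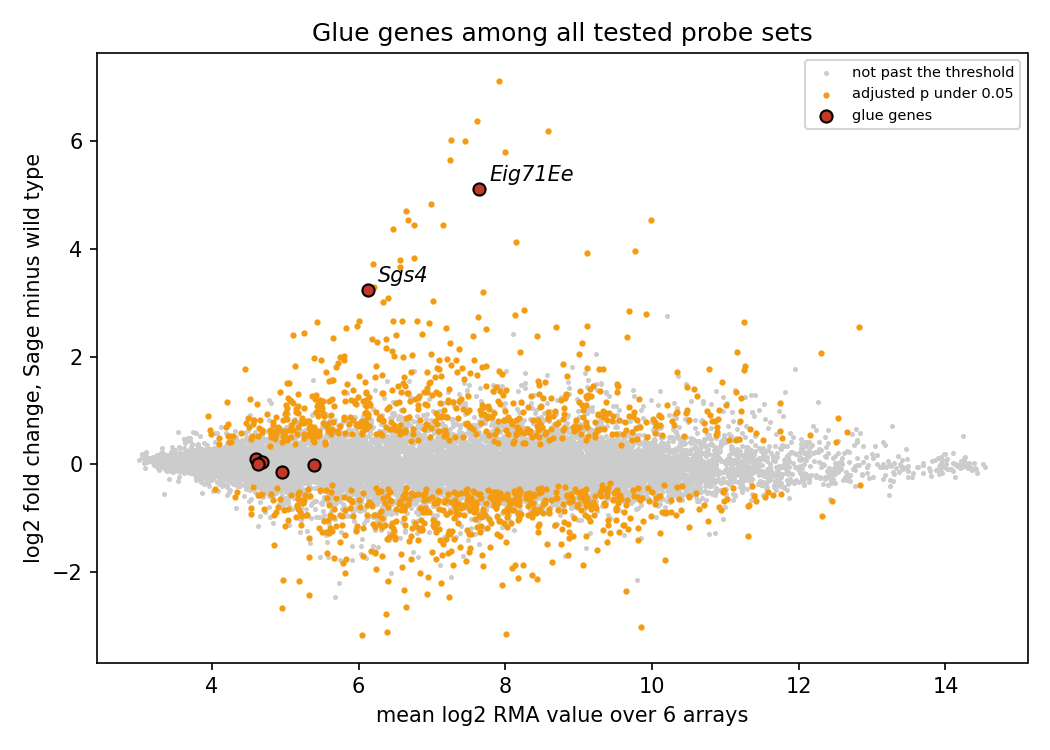
Log2 fold change of Sage overexpression minus wild type against the mean log2 RMA value over 6 arrays for 18769 probe sets. Orange points have a limma adjusted p under 0.05 and red points are the glue genes. Eig71Ee lies at 5.12 and Sgs4 at 3.24, and the other 5 lie near 0 at the dim end.

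Ecdysone drives glue genes on and later off in larvae. Of 30 listed ecdysone response genes 25 were measured, and in limma 0 rose and 0 fell, while 0 were higher and 4 were lower at an unadjusted p under 0.05, beside the 12.7% and 13.4% of all genes. The median was -0.06. ImpL1 had the smallest p. It read 13.00, 13.03 and 12.81 on the Sage arrays, against 13.68, 13.29 and 13.57 in wild type, with a log2 difference of -0.57 (limma adjusted p 0.0552). With the replicate block 3 fell, ImpL1, vri and E23 (limma adjusted p 0.0465, 0.0333 and 0.0494), and 3 fell without wild type array 2. Over all 18769 probe sets the lowered count also moved, from 541 in the main fit to 1114 and 922 in these fits. EcR, the ecdysone receptor, had a difference of -0.34 (limma adjusted p 0.180). The early genes Eip74EF and Eip75B were not analysed here.

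Gland regulators were read on the same arrays. Of 6 measured, 1 rose and 0 fell, where 4.31% of all genes were raised and 3.49% lowered. Senseless (sens), a zinc finger factor of the gland and of sensory organ precursors, read 8.21, 8.42 and 8.28 on the Sage arrays, against 6.62, 6.19 and 6.26 in wild type. It rose 3.85-fold (limma adjusted p 0.00108). Fork head (fkh), which binds control regions of glue genes in larvae, read 8.35, 8.09 and 8.09 on the Sage arrays, against 8.41, 7.94 and 8.09 in wild type (log2 difference 0.03, limma adjusted p 0.944). Hence sens passed the test beside Eig71Ee and Sgs4, and fkh did not.

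Gland products, which the embryonic gland makes for its own secretion, numbered 6. Of these 3 rose and 0 fell (4.31% and 3.49% of all genes), with a median of 0.67. They were PH4alphaSG1, PH4alphaSG2 and Papss, at 2.82-fold, 2.73-fold and 1.98-fold. For pip, the brightest probe set did not pass (log2 difference 0.35), and 1 dimmer one did (1.29). The summed linear signal of the 6 was 25754 to 27267 on the Sage arrays, against 19295 to 21488 on the wild type arrays. Most of that sum came from nur, which averaged 14.21 in Sage overexpression and 14.00 in wild type and did not pass (limma adjusted p 0.200). The count was 0 without Sage array 3, where PH4alphaSG1 (limma adjusted p 0.0548), Papss (0.0592) and PH4alphaSG2 (0.154) missed the threshold, and 1 without Sage array 2. It was 2 without Sage array 1 or without wild type array 1 or 3. Eig71Ee and Sgs4 passed in each of those fits. Over all probe sets the raised count was 230 without Sage array 3 and 273 without Sage array 2, against 608 in the main fit.

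Glue mucins receive their sugars from Pgant enzymes, which start O-glycan chains on serine and threonine. Of 12 measured genes for mucin O-glycosylation 2 rose and 0 fell (4.31% and 3.49% of all genes), with a median of -0.09. Pgant6 read 10.84, 11.09 and 10.84 on the Sage arrays, against 10.09, 10.21 and 9.97 in wild type, and rose 1.78-fold (limma adjusted p 0.0106). Pgant3 rose 1.66-fold (limma adjusted p 0.049). Pgant6 missed the threshold without Sage array 3 (0.0523). Pgant3 missed it without any one array other than wild type array 3 (up to 0.184), after median centring (0.0554) and with the trend and robust settings (0.0515). Both genes read above the brightest control on every array.

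Of 19 other secreted mucins 0 rose and 0 fell in limma, and 12 never passed the brightest control. At an unadjusted limma p under 0.05, 1 was higher and 0 were lower (12.7% and 13.4% of all genes). The higher one was Muc4B, with a log2 difference of 0.45 (limma adjusted p 0.129) and all values within the control range. Without Sage array 2, 1 rose, and without wild type array 2, 1 fell. Over all probe sets 273 rose in the former fit and 922 fell in the latter.

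Because Eig71Ee is also a blood cell gene, blood cell markers were read beside it. Of 14 measured, 3 rose and 0 fell, beside 4.31% and 3.49% of all genes. Raised were Pxn, a peroxidase of the extracellular matrix (2.08-fold), and the crystal cell prophenoloxidases PPO2 (1.88-fold) and PPO1 (1.62-fold). Their limma adjusted p-values were 0.00193, 0.00644 and 0.00637. Of the 14 log2 differences 9 were above 0. Among those below 0, crq (-0.33), srp (-0.26) and gcm (-0.18) read above the brightest control on every array. The marker lz (-0.16) stayed within the control range, and none of these passed. The summed linear signal of the list was 16331 to 17141 on the Sage arrays, against 10369 to 13262 on the wild type arrays. Most of that sum came from Col4a1 and vkg, which did not pass (limma adjusted p 0.191 and 0.211). They averaged 12.22 and 12.27 in Sage overexpression, against 11.84 and 11.81 in wild type. The plasmatocyte genes Hml, eater and He stayed within the control range on every array, and NimC1 passed the brightest control on 1 of 3 arrays in each group. Pxn read 10.22, 10.22 and 10.21 on the Sage arrays, against 9.07, 9.27 and 9.14 in wild type. Its dimmer probe set averaged 4.06 in Sage overexpression and 4.08 in wild type and did not pass (log2 difference -0.03, limma adjusted p 0.905). The raised count was 3 in every fit that left out 1 array, and without wild type array 2, 1 marker fell. Over all probe sets 922 fell in that last fit, against 541 in the main fit. The part of blood cells in the rise of Eig71Ee was not tested.

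Of 9 measured haemolymph clot genes 2 rose and 0 fell (4.31% and 3.49% of all genes), again PPO1 and PPO2, with a median of 0.29. Clot components besides Eig71Ee include fon, whose log2 difference was 0.61 (limma adjusted p 0.289). Late larval fat body genes, which come on in the same larval stage as glue, were near or within the control range. Of 3 measured, 0 rose and 0 fell in limma, while 1 was higher and 0 were lower at an unadjusted p under 0.05, where 12.7% and 13.4% of all genes lay. The storage protein gene Lsp2 read 5.47, 5.61 and 5.58 on the Sage arrays, against 5.22, 5.34 and 5.27 in wild type (log2 difference 0.28, limma adjusted p 0.120).

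**Figure D5:**
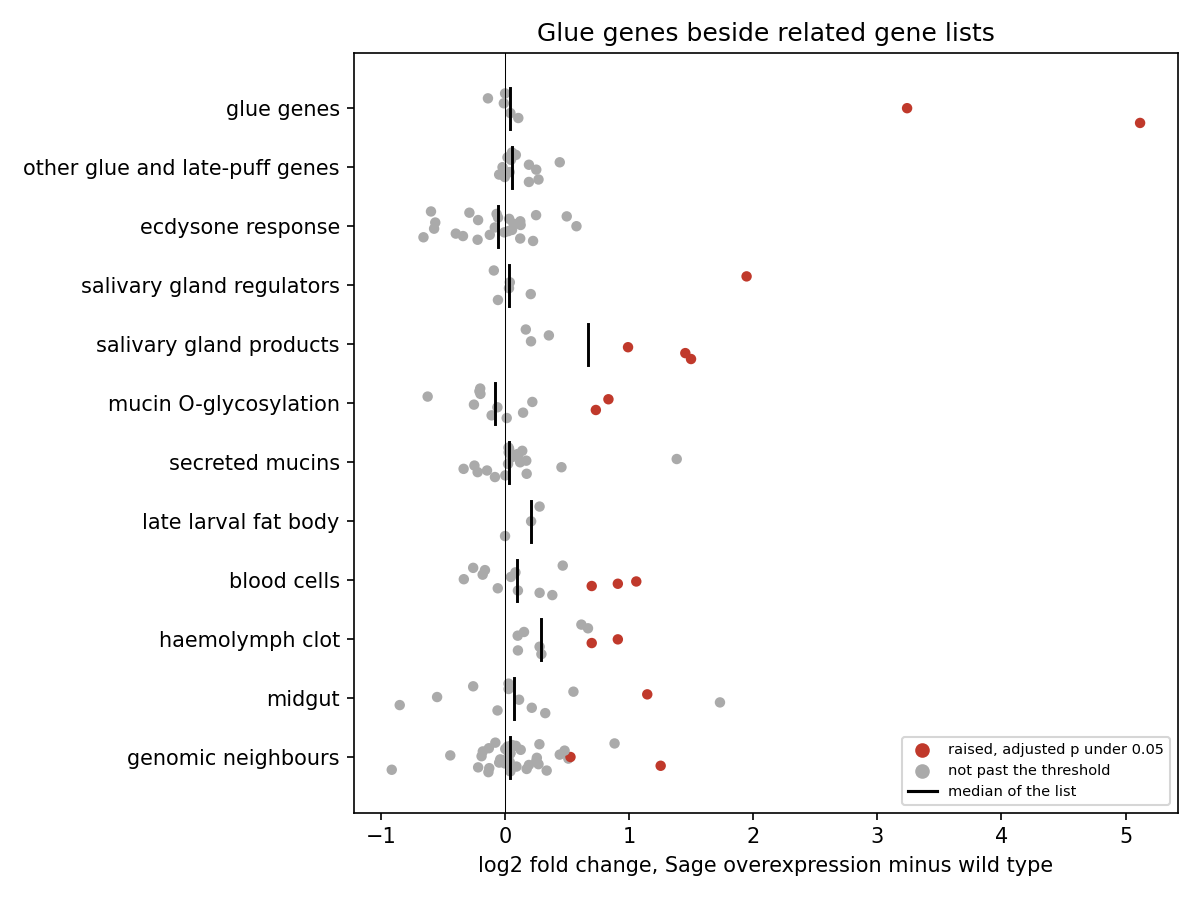
Log2 fold change of Sage overexpression minus wild type (horizontal axis) for each measured gene of the glue group and of related lists, coloured by limma call, with the median of each list as a black bar. Eig71Ee and Sgs4 lie beyond every member of the other lists, and most list medians lie near 0.

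The arrays differed in other ways between groups. All 24 probe sets for polyA spike-ins were lower on the Sage arrays, with a median log2 difference of -1.65. For the control transcripts actin, GAPDH and eIF-4a, log2 differences ran from -1.38 to -1.21 at the 5′ probe sets and from -0.39 to -0.09 at the 3′ probe sets. The part of labelling or RNA quality in the values of the glue genes was not tested. Pairs of Sage arrays had Pearson correlations of 0.989 to 0.996 over the tested probe sets, and pairs of wild type arrays 0.975 to 0.994.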

How the data were processed

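Biotin-labelled RNA of 6 embryo samples was hybridised to Affymetrix arrays, 1 array per sample. Values are on a log2 scale as deposited by the authors; RMA and Partek were used, per the submitters' processing notes, without versions or filters. The log2 scale was inferred from the range of 2.90 to 14.6 and nearly equal array means. Of 18952 probe sets, 183 Affymetrix controls were left out of tests. The number of arrays limits precision.

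Differences, Sage overexpression minus wild type, came from limma 3.58.1 under R 4.3.3 (lmFit, eBayes, two-sided), with Benjamini-Hochberg adjustment over 18769 probe sets and a threshold of 0.05, and was tested on simulated data. Genes of several probe sets are given by the brightest. Symbols came from the platform annotation, updated through the Release 6 gene table, where 13544 of 13647 one-gene identifiers matched. Bounds use, for each wild type array, the higher of the brightest of 70 no-fly-target controls and the gene's own value. Members and lists were chosen with earlier results of these data known; a list of granule genes is not reported here.

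Named were the members, sage, up to 4 changed genes per list (otherwise the smallest p), 3 genes by likeness, and further genes chosen after their values were seen. Deviations from group means correlated at 0.391, 0.668 and 0.334 between samples sharing replicate number 1, 2 and 3 in the labels, each over 0.1. The numbers were therefore taken as pairs in the replicate block alternative, while the main fit was unpaired. Sage array 1, however, correlated at 0.429 with wild type array 3. Alternatives were median centring, quantile normalization, leaving out dim probe sets, trend and robust eBayes, the replicate block, 1 probe set per gene and leaving out each array. A fit without replicate 2 in both groups was chosen after seeing the data. Figures used Python 3.11.15 and matplotlib 3.10.9.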

Additional observations from a re-analysis of the deposited data

How the results depend on the processing

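In each of the 13 alternatives, Eig71Ee and Sgs4 were raised and no other glue gene passed, with log2 fold changes of 4.97 to 5.33 and 3.02 to 3.54 and limma adjusted p-values of at most 0.00122 and 0.0148. With dim probe sets left out, those 2 were the only members tested. They were kept only through their Sage values, so that fit adds no support and does not bear on the other members. The number of changed probe sets moved from 1149 (608 raised, 541 lowered) to 2191 with the replicate block (1077 raised, 1114 lowered), a pairing that changed no glue gene's call. It ranged from 335 to 1857 when 1 array was left out (230 to 935 raised, 105 to 922 lowered). It was lowest without Sage array 3 and highest without wild type array 2, and the cause was not tested. Unpassed differences near 0 changed sign when 1 array was left out, with ranges of -0.0212 to 0.129 for Sgs3, -0.111 to 0.102 for Sgs5 and -0.0747 to 0.0454 for Sgs8, and Sgs5 was at 0.00335 without replicate 2 in both groups. Counts in the related lists moved by over 1.5 times, or to or from 0, in 46 of 312 recomputed values. These include the granule list. Counts of 0 in both fits were scored as unmoved, also where no member was left to test, so the share does not measure stability. Over all settings raised neighbours numbered 0 to 5, lowered ecdysone response genes 0 to 3 and raised O-glycosylation genes 0 to 2. For members within the control range, changes below that range could not be read.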

Other observations

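Genes of the midgut were read as another secretory tissue. The list held digestive enzyme genes and the transcription factor genes GATAe and srp, and srp was also among the blood cell markers. Of 12 measured genes, 1 was raised and 0 were lowered. Over all genes the shares were 4.31% and 3.49%. The trypsin gene alphaTry read 6.96, 7.01 and 7.26 on the Sage arrays, against 5.86, 5.82 and 6.12 in wild type, and rose 2.21-fold (limma adjusted p 0.00575). With the replicate block 1 also fell, Jon65Aiii (limma adjusted p 0.0374), and 3 fell without wild type array 2. Over all probe sets the lowered count was 1114 and 922 in these fits, against 541 in the main fit. The secreted mucin gene Muc91C varied widely within groups, with 10.28, 9.29 and 10.25 on the Sage arrays, against 9.08, 6.82 and 9.78 in wild type. Its array 2 value was the lowest of each group, and its log2 difference of 1.38 did not pass (limma adjusted p 0.370).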
